A study of Rattus norvegicus with 30 samples.

Results

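The 10 genes described here mark the contractile cells that surround vessels and the contractile fibroblasts of repair tissue: Acta2, Tagln, Cnn1, Myh11, Myl9, Lmod1, Mcam, Rgs5, Notch3 and Cspg4. They were taken by name from the genes counted in rat plantaris tendons, where all 10 were found among 13124 genes, and all 10 were among the 12558 genes that passed the filter on low counts. Smooth muscle cells wrap arteries and veins, and pericytes sit along capillaries, where both contract or stabilise the vessel wall. The actin and myosin genes of these cells are driven by serum response factor (SRF) and its partner myocardin, which act through a DNA element called the CArG box, and mural cells also receive Notch signals from the endothelium through the receptor NOTCH3. Fibroblasts of healing connective tissue can switch on part of the same contractile program and are then called myofibroblasts, and NG2 (Cspg4) and CD146 (Mcam) are surface proteins of pericytes that other cell types carry as well.

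RNA was sequenced from the right plantaris tendon of 30 male Sprague Dawley rats aged 3 months. In 27 rats the plantaris tendons of both hindlimbs were cut and sutured while the Achilles tendons stayed intact, and the rats received GSK2894631A, an inhibitor of hematopoietic prostaglandin D synthase, by oral gavage 2 times a day. The repaired groups were 0 mg/kg (vehicle only), 2 mg/kg and 6 mg/kg, with 5, 4 and 3 tendons at 7 days (7D) and 5 tendons per dose at 21 days (21D). The 3 control tendons came from rats with neither surgery nor the inhibitor, and whether these rats were gavaged is not stated. Injury, gavage and vehicle therefore cannot be told apart in a comparison against control tendons. Each value is a whole tendon. Fewer cells of a type and less RNA per cell therefore cannot be told apart.

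Counts summed to 12405741 to 49909374 per tendon, and levels are given as CPM, counts scaled to the same total in each tendon, after TMM scaling, the trimmed-mean method of edgeR. The scaling factors were 0.599 to 0.788 in control tendons and 0.950 to 1.10 in repaired tendons. The labelled tissue also held skeletal muscle RNA in unequal amounts. A list of 26 skeletal muscle genes took 19.5 to 27.7% of all counts in the controls. In 7D tendons the list took 0.175 to 1.30% at 0 mg/kg, 0.00928 to 0.0114% at 2 mg/kg and 0.00996 to 0.0123% at 6 mg/kg. At 21D the share was 0.0667 to 9.81% over the 3 doses. The muscle share in the 7D 2 and 6 mg/kg tendons covered nearly the same range, while both lay below every 7D 0 mg/kg tendon.

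Promoter sequences were available from RefSeq (build GRCr8) for 5 of the 10 genes, Acta2, Cnn1, Rgs5, Notch3 and Cspg4. Each covers 250 bases before the transcription start and 50 after it. The 3 shown belong to the genes whose levels differed between 2 and 0 mg/kg at 7 days, Acta2 and Notch3 being lower and Cspg4 higher. They were searched for CArG boxes, with at most 1 G or C among the 6 middle bases, and for the core of the site bound by RBPJ, the DNA-binding partner of Notch, as TGGGAA or its reverse complement TTCCCA. Both motifs were searched on both strands, and capitals mark the matches.
Acta2, chr1:241172454-241172753, minus strand: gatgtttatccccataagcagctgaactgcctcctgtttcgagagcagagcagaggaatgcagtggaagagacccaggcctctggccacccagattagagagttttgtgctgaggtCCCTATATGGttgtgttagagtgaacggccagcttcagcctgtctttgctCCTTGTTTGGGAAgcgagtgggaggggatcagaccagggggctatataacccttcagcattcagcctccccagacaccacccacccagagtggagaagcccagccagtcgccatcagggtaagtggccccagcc
Notch3, chr7:11834536-11834835, minus strand: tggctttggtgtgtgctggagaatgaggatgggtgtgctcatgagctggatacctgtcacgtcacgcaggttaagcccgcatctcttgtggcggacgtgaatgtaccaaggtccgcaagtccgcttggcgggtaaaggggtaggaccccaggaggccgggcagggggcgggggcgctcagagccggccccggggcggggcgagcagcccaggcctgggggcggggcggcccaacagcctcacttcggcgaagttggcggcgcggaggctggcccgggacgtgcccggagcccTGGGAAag
Cspg4, chr8:66160692-66160991, plus strand: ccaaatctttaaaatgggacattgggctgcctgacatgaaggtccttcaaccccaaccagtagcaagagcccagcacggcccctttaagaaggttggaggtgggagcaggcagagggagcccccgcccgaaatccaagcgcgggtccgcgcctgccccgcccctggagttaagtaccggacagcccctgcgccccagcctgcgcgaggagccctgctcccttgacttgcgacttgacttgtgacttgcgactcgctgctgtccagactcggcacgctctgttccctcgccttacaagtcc

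The Acta2 promoter held 2 CArG boxes, which begin at positions -134 and -84 from the start site, and an RBPJ core at -77 that overlaps the second box. The Notch3 sequence held an RBPJ core that begins at position 43, after the start site, and no CArG box. The Cspg4 sequence held neither motif. Of 33469 rat promoters of the same length, 9.42% held a CArG box by this definition and 25.7% held an RBPJ core. Of the other promoters, that of Cnn1 held an RBPJ core at -228 and no CArG box, and that of Rgs5 held neither.

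At 7 days, most of the marker genes had their lowest mean in the 2 mg/kg tendons, and Cspg4 had its highest mean of the 3 doses there. Compared to 7D 0 mg/kg tendons, 3 of the 10 genes passed the test in 7D 2 mg/kg tendons (edgeR's quasi-likelihood test over all genes, adjusted p under 0.05), and 2.36% of all 12558 genes did so. Acta2 and Notch3 were lower, where 1.45% of all genes were, and Cspg4 was higher, where 0.908% of all genes were. The log2 fold change was below 0 for 9 of the 10 genes, with a median of -0.98 over the 10 against 0.001 over all genes. The ranges of the 2 groups did not overlap for Acta2 and Cspg4, 2 of the 10 genes, as for 6.65% of all genes.

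**Figure D1:**
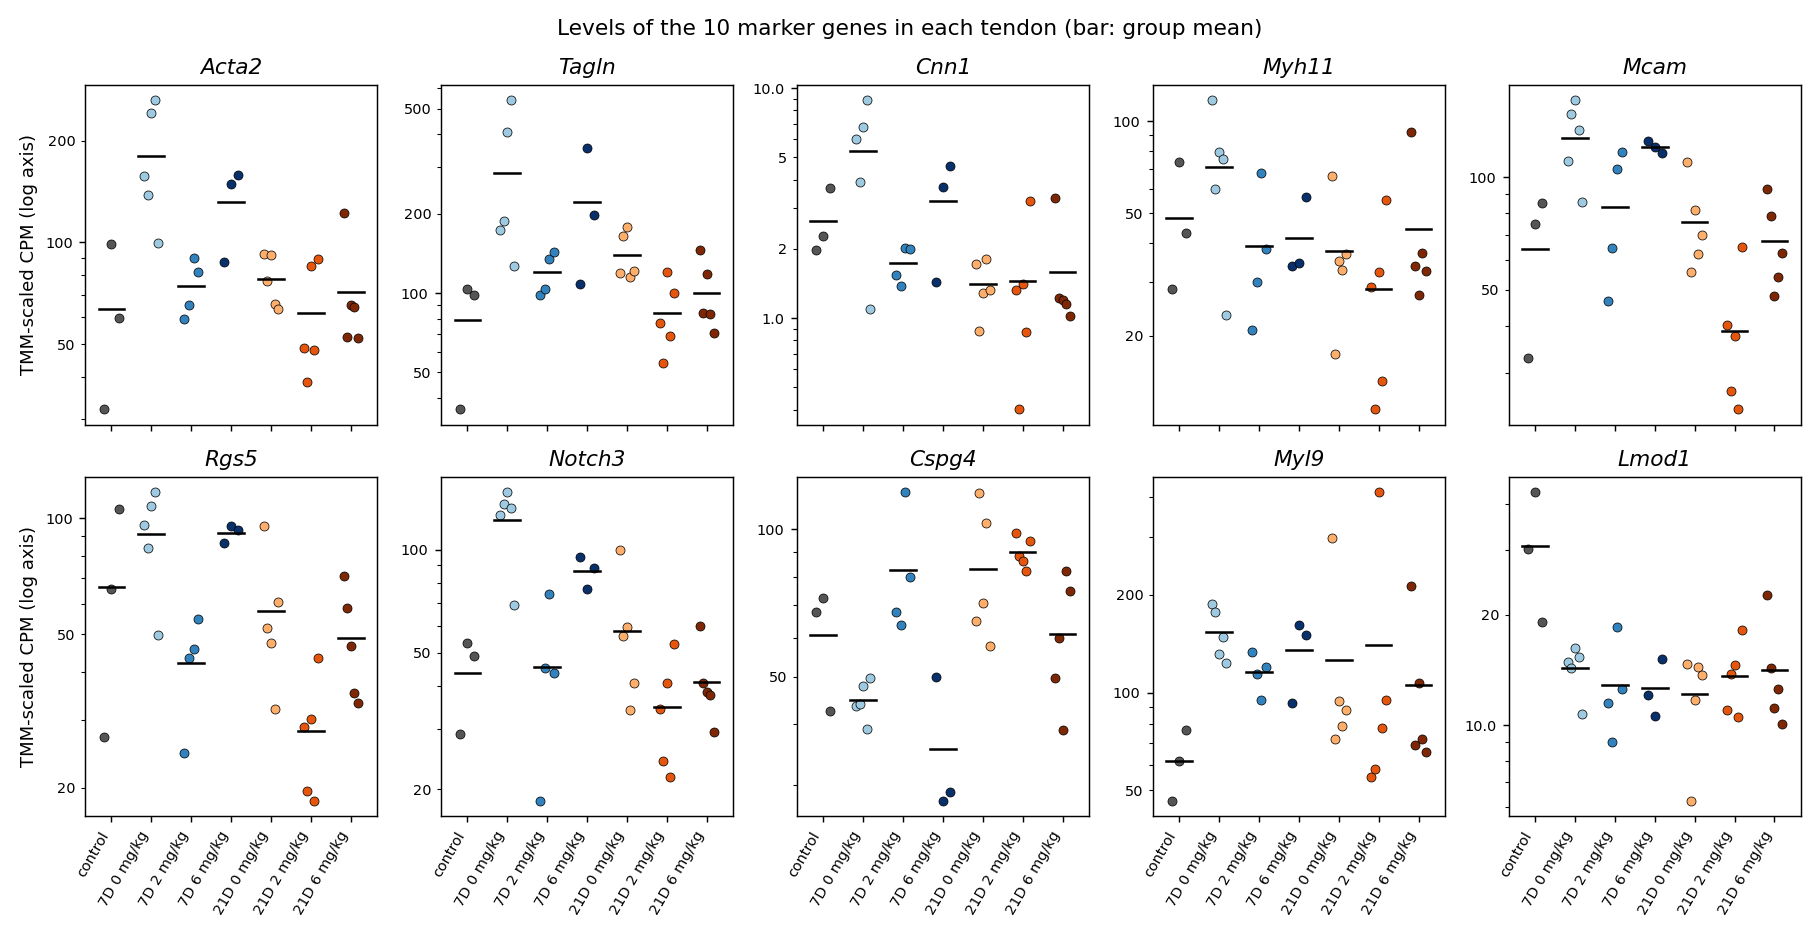
TMM-scaled CPM on a log axis for each marker gene, with 1 point per tendon and a horizontal bar at the group mean. In the 7D 2 mg/kg tendons Acta2 lay at 59.3 to 90.2 CPM against 99.9 to 263 CPM in the 7D 0 mg/kg tendons, while Cspg4 lay at 63.9 to 119 CPM against 39.1 to 49.6 CPM.

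Acta2 (ENSRNOG00000058039, chromosome 1) encodes smooth muscle alpha-actin, the thin-filament actin of vascular smooth muscle and of myofibroblasts. It was counted at 157, 138, 242, 263 and 99.9 CPM in the 7D 0 mg/kg tendons and at 59.3, 65.1, 90.2 and 81.8 CPM in the 7D 2 mg/kg tendons. In the 7D 6 mg/kg tendons it was counted at 87.8, 149 and 158 CPM. Every 2 mg/kg tendon was below every 0 mg/kg tendon, and the lowest 6 mg/kg tendon fell inside the 2 mg/kg range. The means were 180 ± 69.8 CPM (SD, n = 5), 74.1 ± 14.4 CPM (n = 4) and 132 ± 38.3 CPM (n = 3) at 0, 2 and 6 mg/kg. The log2 fold change of Acta2 between 2 and 0 mg/kg was -1.28 (standard error 0.331, adjusted p = 0.0359 from the edgeR test).

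Notch3 (ENSRNOG00000004346, chromosome 7), the Notch receptor of mural cells, was counted at 126, 135, 147, 132 and 68.7 CPM in the 7D 0 mg/kg tendons. It was counted at 18.5, 45.2, 74.4 and 43.6 CPM in the 7D 2 mg/kg tendons and at 94.8, 76.6 and 88.5 CPM in the 7D 6 mg/kg tendons. The lowest 0 mg/kg tendon fell inside the 2 mg/kg range, whereas every 6 mg/kg tendon was above every 2 mg/kg tendon. The log2 fold change of Notch3 between 2 and 0 mg/kg was -1.43 (standard error 0.344, adjusted p = 0.0226 from the edgeR test).

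Cspg4 (ENSRNOG00000017208, chromosome 8) encodes the NG2 proteoglycan, a surface protein of pericytes and of several progenitor cells. Its levels were 43.5, 43.9, 47.9, 39.1 and 49.6 CPM in the 7D 0 mg/kg tendons, 67.7, 63.9, 119 and 80.0 CPM in the 7D 2 mg/kg tendons, and 49.9, 27.9 and 29.1 CPM in the 7D 6 mg/kg tendons. All 2 mg/kg tendons were above all tendons of the other doses. The log2 fold change of Cspg4 between 2 and 0 mg/kg was 0.88 (standard error 0.231, adjusted p = 0.0387 from the edgeR test), the direction opposite to that of Acta2 and Notch3.

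These 3 calls lay close to the threshold. With any 1 tendon left out, Acta2 lost its call in 6 of 9 fits, Notch3 in 6 of 9 and Cspg4 in 7 of 9. The tendons whose removal ended each call were 7D 0 mg/kg replicates 3 and 4 and 7D 2 mg/kg replicates 2, 3, 4 and 5 for Acta2. For Notch3 they were 7D 0 mg/kg replicates 2, 3 and 4 and 7D 2 mg/kg replicates 2, 3 and 5, and for Cspg4 all 5 of the 7D 0 mg/kg tendons and 7D 2 mg/kg replicates 4 and 5. The log2 fold changes stayed between -1.43 and -1.10 for Acta2, between -1.77 and -1.16 for Notch3 and between 0.65 and 0.99 for Cspg4 over these fits. With the muscle share as a covariate none of the 3 genes passed the test, with log2 fold changes of -1.07 for Acta2, -1.03 for Notch3 and 0.54 for Cspg4 and adjusted p of 0.131, 0.148 and 0.286 (edgeR). With library size only, in place of TMM, Cspg4 did not pass (0.84, adjusted p = 0.0746 from edgeR).

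The other contractile genes did not pass the test between 2 and 0 mg/kg. Tagln, which encodes the actin-binding protein SM22-alpha, was counted at 126 to 538 CPM in 7D 0 mg/kg tendons and at 98.6 to 143 CPM in 7D 2 mg/kg tendons (log2 fold change -1.26, standard error 0.389, adjusted p = 0.0874 from edgeR). Cnn1, the actin-binding calponin of smooth muscle, was a low gene with 31 to 49 counts per tendon in the 7D 2 mg/kg group. Its levels were 6.01, 3.89, 6.77, 8.84 and 1.09 CPM at 0 mg/kg and 1.55, 1.37, 2.02 and 1.99 CPM at 2 mg/kg, so that 4 of the 5 vehicle tendons were above all 2 mg/kg tendons and replicate 5 was below them. The log2 fold change of Cnn1 was -1.62 (standard error 0.523, adjusted p = 0.101 from edgeR).

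Smaller log2 fold changes were found for the rest, with -0.86 for Myh11, the myosin heavy chain of smooth muscle (adjusted p = 0.417), -0.41 for Myl9, a regulatory myosin light chain (adjusted p = 0.76), and -0.15 for Lmod1, an actin-nucleating leiomodin (adjusted p = 0.838, all from edgeR). The 7D 0 and 2 mg/kg ranges of these 3 genes overlapped. Among the vessel markers, Rgs5, which speeds the shut-off of G protein signals in pericytes, was counted at 49.7 to 117 CPM in 7D 0 mg/kg tendons. At 2 mg/kg Rgs5 was counted at 24.6, 43.5, 45.8 and 54.8 CPM (log2 fold change -1.11, standard error 0.351, adjusted p = 0.0943 from edgeR). Mcam, an adhesion molecule of pericytes and endothelium, had a log2 fold change of -0.61 (adjusted p = 0.336 from edgeR). DESeq2 called 6 of the 10 genes in this comparison, and in it the adjusted p of Rgs5 was 0.0249. It called more genes in general, 710 of 12558 against 296 by edgeR.

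**Figure D2:**
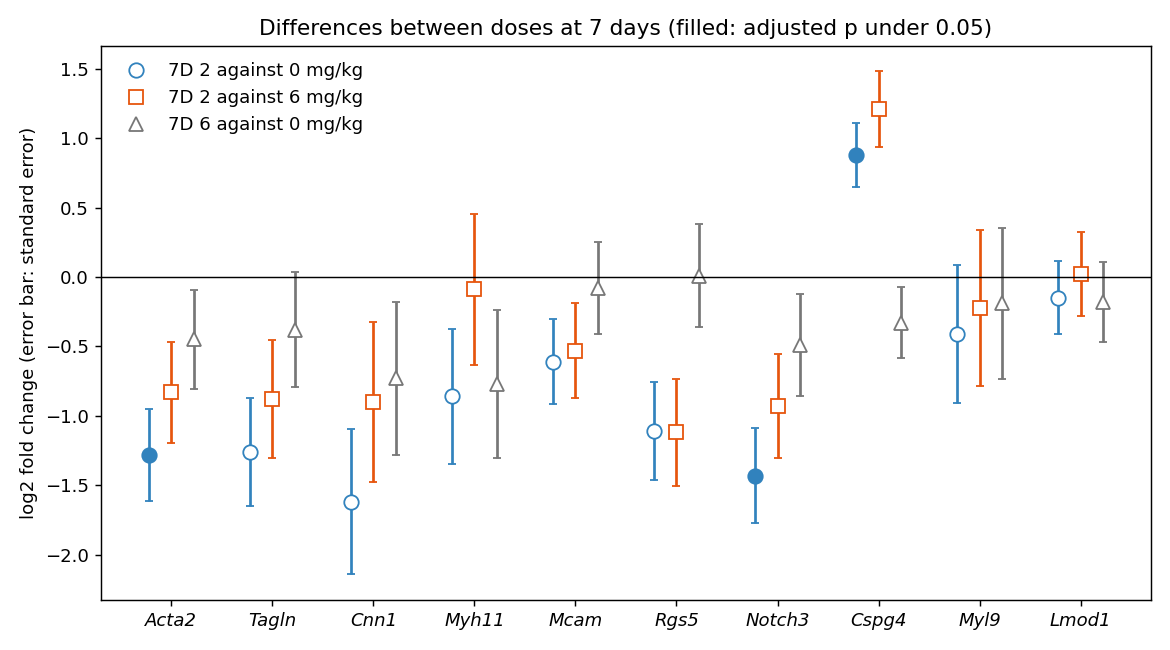
Log2 fold change of each marker gene between doses at 7 days, with the standard error as bar and filled symbols for adjusted p under 0.05 in the edgeR test. The only filled symbols are Acta2 (-1.28), Notch3 (-1.43) and Cspg4 (0.88) between 2 and 0 mg/kg.

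Between the 2 doses of the inhibitor, no marker gene passed the test, and edgeR called 0 of 12558 genes (0% called; 997 genes, 5 of them markers, at an unadjusted p under 0.05). DESeq2 called 69 genes in this comparison, and Cspg4 was the 1 marker gene among them (adjusted p = 0.00416). The ranges of the 2 and 6 mg/kg tendons did not overlap for 3 of the 10 genes, Rgs5 and Notch3 being lower and Cspg4 higher at 2 mg/kg, and 10.7% of all genes had ranges that did not overlap. Rgs5 was counted at 86.2, 95.6 and 93.3 CPM in the 6 mg/kg tendons, and all of these were above the highest 2 mg/kg tendon. The log2 fold changes between 2 and 6 mg/kg were -1.12 for Rgs5 (standard error 0.387), -0.93 for Notch3 (0.375), -0.83 for Acta2 (0.364) and 1.21 for Cspg4 (0.273). The adjusted p of these 4 genes were 0.388, 0.517, 0.566 and 0.158 in the edgeR test.

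Between 6 and 0 mg/kg no marker gene passed the test either, while 0.390% of all genes did, all of them lower (edgeR). None of the 10 had an unadjusted p under 0.05, and 746 of all genes had. DESeq2 called 194 genes and none of the 10 markers. Log2 fold changes ran from -0.77 for Myh11 to 0.01 for Rgs5, with a median of -0.35. For Rgs5 the mean was 90.9 ± 26.2 CPM (SD, n = 5) in vehicle tendons against 91.7 ± 4.92 CPM (n = 3) at 6 mg/kg. In the same tendons the muscle genes were low. At 6 mg/kg the muscle share was as low as at 2 mg/kg, and 15 of the 26 muscle genes were lower than at 0 mg/kg. Acta2, Notch3 and Rgs5 had higher means at 6 than at 2 mg/kg, but no marker passed the edgeR test between these doses. Myh11 (41.6 and 39.2 CPM) and Lmod1 (12.6 and 12.9 CPM) had similar means at 6 and 2 mg/kg. Cspg4 was lower at 6 mg/kg. The cause of these differences was not tested.

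The 2 mg/kg tendons were also set against the mean of both other 7D doses. Cspg4 passed this test (log2 fold change 1.05, standard error 0.209, adjusted p = 0.0158 from edgeR), as 1.08% of all genes did (0.868% higher), and no other marker gene passed. Without 7D 2 mg/kg replicate 4 or 7D 6 mg/kg replicate 4 Cspg4 did not pass, and the highest adjusted p over the 12 fits that left out a tendon was 0.0806. With the muscle share as a covariate Cspg4 still passed (0.87, adjusted p = 0.0341 from edgeR). In the test over all 3 doses at 7D, Cspg4 passed again (adjusted p = 0.0142), where 2.05% of all genes did. Notch3 and Acta2 had an adjusted p of 0.0599 and 0.0931 in that edgeR test. These comparisons share the 7D 2 mg/kg tendons with those above.

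The wider contractile program was described with 35 other contractile and SRF-myocardin genes that passed the filter. Between 7D 2 and 0 mg/kg, 2 of them were lower and none higher, where 1.45% of all genes were lower. Their median log2 fold change was -0.37. Desmin (Des, -2.61, standard error 0.653, adjusted p = 0.0295) and Actn1, an alpha-actinin (-0.53, standard error 0.138, adjusted p = 0.0364), were the genes that fell (edgeR). Desmin is also the intermediate filament of skeletal muscle, and its level was 6120 ± 2018 CPM in control tendons and, at 7D, 363 ± 165 CPM with vehicle and 59.4 ± 7.40 CPM with 2 mg/kg. At 6 mg/kg Des was at 55.9 ± 5.31 CPM, close to its level at 2 mg/kg. The smooth muscle gamma-actin gene Actg2 had a log2 fold change of -1.57 (adjusted p = 0.101) and smoothelin (Smtn) of -0.83 (adjusted p = 0.0845). Srf itself was at -0.31 (adjusted p = 0.215) and the myosin light chain kinase Mylk at -0.19 (adjusted p = 0.889).

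Of the other pericyte and mural genes, 32 passed the filter. Between 7D 2 and 0 mg/kg 1 of them passed the test, where 2.36% of all genes did. This was Aoc3, the vascular adhesion amine oxidase that smooth muscle and fat cells also make, which was higher (0.69, standard error 0.183, adjusted p = 0.0438 from edgeR). The median of the list was -0.29. The summed level of its 34 counted genes went the other way, with overlapping ranges. It was 1761 to 2404 CPM at 0 mg/kg, 2235 to 3043 CPM at 2 mg/kg and 2108 to 2817 CPM at 6 mg/kg. Pdgfrb, the receptor through which platelet-derived growth factor recruits pericytes, had a log2 fold change of -0.52 (adjusted p = 0.163). Its level was 206 ± 37.1 CPM at 0 mg/kg, 144 ± 25.6 CPM at 2 mg/kg and 195 ± 26.7 CPM at 6 mg/kg, so that the order of the doses was that of Notch3.

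Of 19 other Notch pathway genes none passed the test between 7D 2 and 0 mg/kg, and their median log2 fold change was -0.25. Heyl, a target gene of Notch signals in vessel walls, was counted at 12.6 ± 3.71 CPM at 0 mg/kg, 6.21 ± 1.11 CPM at 2 mg/kg and 9.10 ± 1.20 CPM at 6 mg/kg. Its log2 fold change between 2 and 0 mg/kg was -1.02 (standard error 0.322, adjusted p = 0.0934 from edgeR). Jag1, a ligand of the Notch receptors, stood at 70.8 ± 7.28 CPM and 72.2 ± 6.58 CPM at 0 and 2 mg/kg, a log2 fold change of 0.03 (adjusted p = 0.956). None of 23 fibroblast activation genes passed, with a median of -0.13. Between 2 and 6 mg/kg no gene of these 4 lists passed, and the medians of the contractile, mural, Notch and fibroblast lists were -0.13, -0.10, -0.09 and -0.16.

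**Figure D3:**
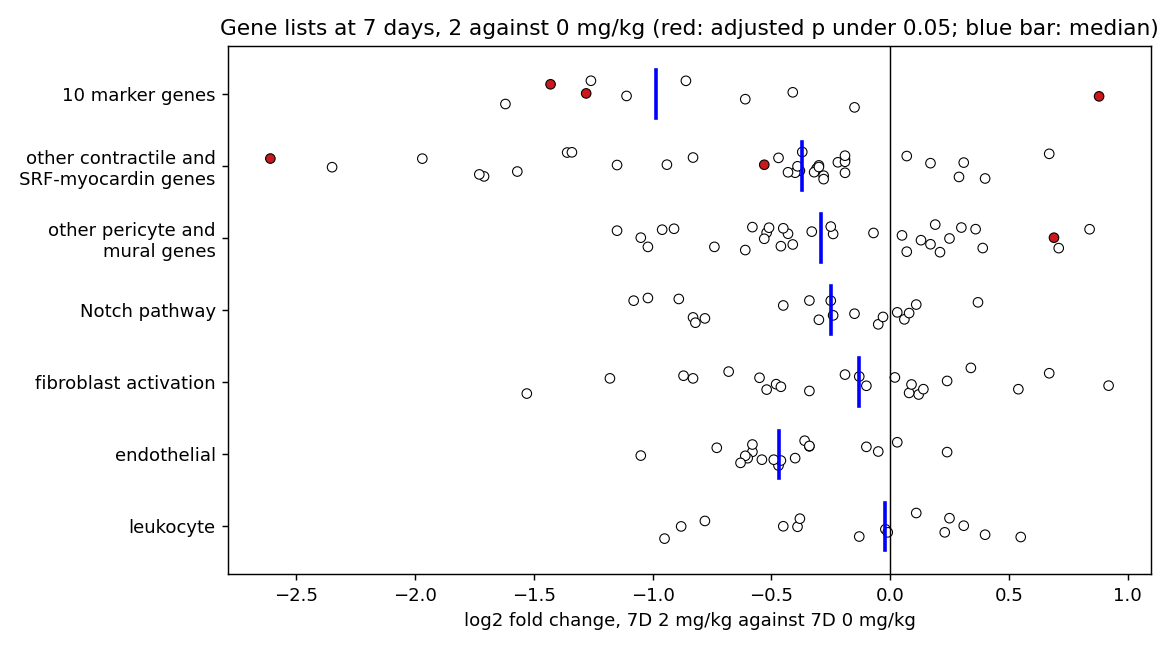
Log2 fold change between 7D 2 and 7D 0 mg/kg for the marker genes and for 6 other gene lists, with 1 point per gene, red for adjusted p under 0.05 and a blue bar at the list's median. The median was -0.98 for the 10 markers, -0.47 for the endothelial list and between -0.37 and -0.02 for the others drawn.

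Markers of other cell types moved beside these genes to different degrees. The 19 endothelial markers had a median log2 fold change of -0.47 between 7D 2 and 0 mg/kg, and none passed the test. Their summed level was 1765 to 2524 CPM at 0 mg/kg, 1534 to 2149 CPM at 2 mg/kg and 1740 to 2233 CPM at 6 mg/kg. Cdh5, the cadherin of endothelial junctions, was at 169 ± 37.9 CPM, 109 ± 24.9 CPM and 144 ± 19.3 CPM at these doses, with a log2 fold change of -0.63 between 2 and 0 mg/kg (adjusted p = 0.385 from edgeR). The summed level of the 10 markers was 638 to 1470 CPM at 0 mg/kg, 483 to 753 CPM at 2 mg/kg and 692 to 1036 CPM at 6 mg/kg. Of the 26 muscle genes, 19 fell between 2 and 0 mg/kg and none rose, with a median of -6.65, where 1.45% of all genes fell. The summed level of that list was 1644 to 12281 CPM at 0 mg/kg, 89.9 to 109 CPM at 2 mg/kg and 93.8 to 115 CPM at 6 mg/kg.

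No gene passed among 15 leukocyte, 7 Schwann cell, 8 adipocyte and 10 tendon cell markers between 7D 2 and 0 mg/kg, and their medians were -0.02, 0.65, 1.04 and -0.14. The summed Schwann cell markers ranged from 478 to 599 CPM at 0 mg/kg, 661 to 980 CPM at 2 mg/kg and 575 to 672 CPM at 6 mg/kg, so that at 2 mg/kg Cspg4 and this sum were both above every 0 mg/kg tendon. The part of vessel number, nerve and fat content in the levels of the markers was not tested. Muscle content was entered only as a covariate. The muscle share of every 7D 2 mg/kg tendon was below that of every 7D 0 mg/kg tendon, so its part cannot be told apart from that of dose.

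Acta2 shares much of its coding sequence with Acta1, the actin of skeletal muscle, and with Actg2, and how reads that match more than 1 actin gene were counted is not given in the sources used here. Acta1 was at 50042 ± 19951 CPM in control tendons, and at 7D its mean was 999 ± 838 CPM with vehicle, 3.07 ± 1.83 CPM with 2 mg/kg and 7.23 ± 2.42 CPM with 6 mg/kg. In control tendons, with the most Acta1, Acta2 was at 63.5 ± 33.5 CPM, below its mean in the 7D 0 mg/kg tendons. The part of shared reads in the level of Acta2 was not tested.

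The marker genes were then compared with uninjured tendons. In the 7D 0 mg/kg tendons 6 of the 10 passed the test against control tendons, 5 higher and 1 lower, where 71.4% of all genes passed (35.8% higher and 35.6% lower). The genes that rose were Tagln (log2 fold change 1.85, standard error 0.444, adjusted p = 0.000646), Acta2 (1.5, 0.372, 0.000881), Notch3 (1.48, 0.383, 0.00135), Myl9 (1.32, 0.568, 0.041) and Mcam (0.99, 0.341, 0.0124), all by edgeR. The control levels were 32.1, 98.8 and 59.6 CPM for Acta2 and 28.9 to 53.4 CPM for Notch3, and for all 5 genes every 7D 0 mg/kg tendon was above every control tendon. With Lmod1, which was lower, 6 of the 10 genes had ranges that did not overlap, as 61.9% of all genes had. Mcam lost its call without control replicate 2 (adjusted p = 0.145). Myl9 lost its call in 6 of the 8 fits that left out a tendon, namely any of the 3 control tendons or 7D 0 mg/kg replicate 1, 2 or 4. The summed level of the 10 markers was 332 to 649 CPM in control tendons. In the same comparison 9 of 19 endothelial markers were higher, 14 of 15 leukocyte markers were higher and 26 of 26 muscle genes were lower.

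The other 7D doses were compared with control tendons in the same way. In 7D 6 mg/kg tendons 6 of the 10 genes passed, against 67.9% of all genes (34.1% higher and 33.8% lower), with Tagln (1.48), Acta2 (1.05), Notch3 (0.99) and Mcam (0.90) higher and Cspg4 (-0.77) and Lmod1 (-1.29) lower. Of these only Lmod1 kept its call in each of the 6 fits that left out a tendon. Tagln lost its call without control replicate 2 or 7D 6 mg/kg replicate 4, and Cspg4 without control replicate 3 or 7D 6 mg/kg replicate 4 or 5. Acta2, Mcam and Notch3 lost theirs in 4 fits each, all 3 without control replicate 2 or 7D 6 mg/kg replicate 5, Acta2 and Notch3 without control replicate 4, Acta2 and Mcam without 7D 6 mg/kg replicate 4, and Mcam and Notch3 without 7D 6 mg/kg replicate 1. With the muscle share as a covariate Mcam was the only 1 of the 6 that passed, while Acta2, Tagln and Notch3 were at 1.46, 1.4 and 1.76 (adjusted p = 0.215, 0.315 and 0.136) and Cspg4 was at -1.45 (adjusted p = 0.0724, edgeR). In 7D 2 mg/kg tendons 1 of the 10 genes passed, Lmod1 as lower, against 69.7% of all genes (34.0% lower). There the log2 fold changes were 0.60 for Tagln, 0.22 for Acta2, 0.05 for Notch3 and 0.37 for Mcam, with adjusted p between 0.223 and 0.907. Since all 3 doses share the control tendons, the difference between doses is the one tested above, without them.

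Lmod1 was the only marker gene that was lower than control tendons in all 6 repaired groups. Of all genes, 33.3 to 35.6% passed as lower in each of these comparisons, which share the same control tendons. The share of all genes that were lower in all 6 is not given here, so this count is not a result about Lmod1. Lmod1 was counted at 30.2, 43.1 and 19.1 CPM in control tendons, and the means of the repaired groups were 12.2 to 14.3 CPM. Its log2 fold changes were -1.11, -1.26 and -1.29 at 7D and -1.34, -1.18 and -1.12 at 21D for 0, 2 and 6 mg/kg, with adjusted p between 0.000191 and 0.00119 (edgeR). Without any 1 tendon the call held in each of the 6 groups. The highest repaired tendon, 21D 6 mg/kg replicate 1 at 22.6 CPM, was above the lowest control tendon. With the muscle share as a covariate the log2 fold change of Lmod1 was -0.32 in 7D 0 mg/kg tendons (adjusted p = 0.454), 0.33 in 7D 2 mg/kg tendons (adjusted p = 0.73) and 0.29 in 7D 6 mg/kg tendons (adjusted p = 0.76). In the 21D groups it still passed with that covariate, at -0.88, -0.69 and -0.69 for 0, 2 and 6 mg/kg (adjusted p = 0.0119, 0.0409 and 0.0409, all edgeR).

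Scaling moved the comparison with control tendons. With library size only, the median log2 fold change of all genes against control tendons was 0.508 to 0.641 in place of 0.007 to 0.055. On that scale 5 marker genes passed in 7D 2 mg/kg tendons, 4 of them higher, and 7 passed in 21D 0 mg/kg tendons, 6 of them higher. With TMM 69.7 and 65.9% of all genes passed in these comparisons. The share of all genes called on the library-size scale is not given here, so these counts are not a result about the markers. The log2 fold change of Lmod1 in 7D 0 mg/kg tendons was then -0.56 (adjusted p = 0.0835) and that of Cspg4 turned from -0.44 to 0.12 (adjusted p = 0.698, both edgeR). In 7D 6 mg/kg tendons Cspg4 lost its call as lower on that scale (-0.22 in place of -0.77, adjusted p = 0.521). Acta2, Tagln, Mcam, Notch3 and Myl9 still passed as higher in 7D 0 mg/kg tendons on that scale.

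**Figure D4:**
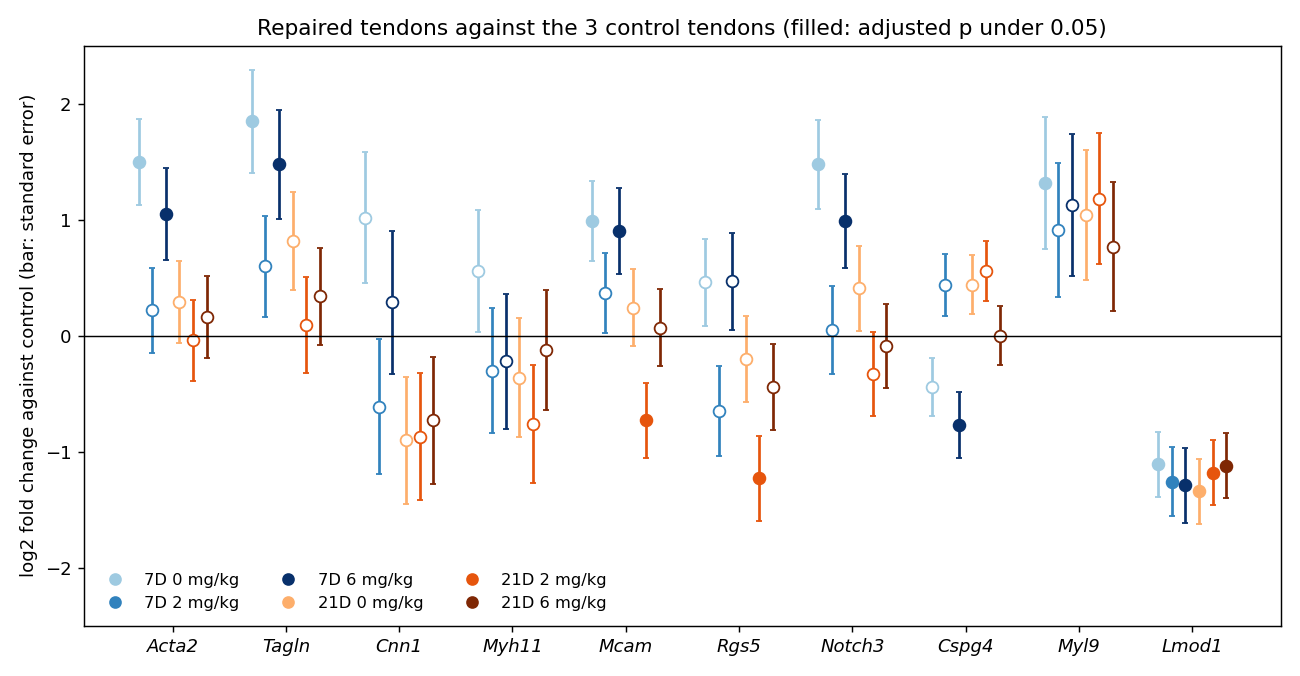
Log2 fold change of each marker gene against the 3 control tendons in the 6 repaired groups, with the standard error as bar and filled points for adjusted p under 0.05 in the edgeR test. Lmod1 is filled in all 6 groups (-1.34 to -1.11), while Acta2 is filled in 7D 0 mg/kg (1.5) and 7D 6 mg/kg (1.05) tendons and open at 0.22 in 7D 2 mg/kg tendons.

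At 21 days no marker gene passed the test as higher than control tendons at any dose in the main edgeR fit. With another test (limma-trend), or with replicate number in the model, 1 marker passed as higher at 21D 0 mg/kg. With library size only, 6 did so there and 1 at 21D 6 mg/kg. In the main fit only Lmod1 passed against control tendons in the 21D 0 and 6 mg/kg groups, in each case as lower. Of all genes 65.9 and 64.1% passed there (33.7 and 33.3% lower). In the 21D 2 mg/kg group 3 genes passed, all lower, where 69.1% of all genes passed (35.3% lower). These were Rgs5 (-1.23, standard error 0.366, adjusted p = 0.0044), Lmod1 and Mcam (-0.73, standard error 0.325, adjusted p = 0.0483, edgeR). Rgs5 was counted at 27.1, 65.6 and 106 CPM in control tendons and at 18.5 to 43.5 CPM in 21D 2 mg/kg tendons, and lost its call without control replicate 4 (adjusted p = 0.0847). Mcam lost its call in 6 of 8 fits, those without control replicate 3 or 4 or without 21D 2 mg/kg replicate 1, 2, 3 or 4. With library size only neither Rgs5 (-0.65, adjusted p = 0.098) nor Mcam (-0.18, adjusted p = 0.611) passed, and with the muscle share as a covariate neither did (-0.88, adjusted p = 0.068, and -0.34, adjusted p = 0.425, edgeR). In the same comparison 5 of 19 endothelial markers were lower and 1 was higher, with a median log2 fold change of -0.22 and a summed level of 1036 to 1585 CPM against 779 to 1617 CPM in control tendons. In addition, 25 of 26 muscle genes and 1 of 8 adipocyte markers were lower. Their part in the values of Rgs5 and Mcam was not tested.

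Between 21 and 7 days at 0 mg/kg, 4 of the 10 genes passed the test, against 5.35% of all genes (2.88% higher and 2.47% lower). Cnn1 (-1.92, standard error 0.484, adjusted p = 0.0235), Acta2 (-1.21, 0.307, 0.024) and Notch3 (-1.07, 0.315, 0.0461) were lower at 21D, and Cspg4 was higher (0.89, 0.220, 0.0213, all by edgeR). Acta2 was counted at 92.1, 76.8, 91.5, 65.6 and 63.3 CPM at 21D, every tendon below every 7D tendon. Cspg4 was counted at 65.0, 118, 70.6, 103 and 57.9 CPM at 21D, every tendon above the 39.1 to 49.6 CPM of the 7D tendons. These were the 2 genes of 10 whose ranges did not overlap, which held for 6.85% of all genes. The median over the 10 genes was -0.83 against 0.009 over all genes.

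Leaving out 1 tendon gave 0 to 4 calls among the 10 genes in this comparison, with 0 without 7D 0 mg/kg replicate 3. Acta2 lost its call in 4 of 10 fits, Cnn1 in 3, Notch3 in 7 and Cspg4 in 3. The removals were 7D 0 mg/kg replicates 3 and 4 for all 4 genes, 21D 0 mg/kg replicate 4 for Acta2, Notch3 and Cspg4, 21D 0 mg/kg replicate 5 for Acta2, Cnn1 and Notch3, and 7D 0 mg/kg replicates 1 and 2 and 21D 0 mg/kg replicate 3 for Notch3 alone. With the muscle share as a covariate Notch3 had an adjusted p of 0.0506 (log2 fold change -1.2, edgeR), and the other 3 genes passed. The 7D 0 mg/kg tendons are the same ones that served the dose comparison at 7 days, so that the 2 results are not independent. The genes that differed between 7D 2 and 0 mg/kg, Acta2, Notch3 and Cspg4, had log2 fold changes of -1.28, -1.43 and 0.88 there and of -1.21, -1.07 and 0.89 between 21D and 7D at 0 mg/kg.

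The same interval at the other doses gave fewer calls. At 2 mg/kg Mcam was the 1 marker gene that passed (-1.10, standard error 0.302, adjusted p = 0.0167 from edgeR), against 13.1% of all genes (5.98% lower). It fell from 46.9, 64.7, 105 and 117 CPM at 7D to 40.2, 26.9, 37.7, 24.0 and 65.3 CPM at 21D, and lost its call without 7D 2 mg/kg replicate 4 or 5 (highest adjusted p = 0.086). In the same comparison 3 of 19 endothelial markers were lower (median -0.65) and 7 of 8 adipocyte markers were lower (median -3.81), while 26 of 26 muscle genes were higher (median 8.56). The log2 fold changes of Acta2, Notch3 and Cspg4 at 2 mg/kg were -0.26, -0.38 and 0.12. At 6 mg/kg Notch3 (-1.07, standard error 0.354, adjusted p = 0.0446) and Cspg4 (0.78, standard error 0.260, adjusted p = 0.0477) passed, also against 13.1% of all genes (8.54% higher and 4.55% lower). With 1 tendon left out, Notch3 lost its call in 7 of 8 fits, all but that without 21D 6 mg/kg replicate 1, and Cspg4 in 5 of 8, those without 7D 6 mg/kg replicate 4 or 5 or without 21D 6 mg/kg replicate 2, 4 or 5. Neither passed with the muscle share as a covariate (-1.63, adjusted p = 0.165, for Notch3 and 1.26, adjusted p = 0.11, for Cspg4), and Cspg4 did not pass with library size only (0.69, adjusted p = 0.0995, edgeR). At that dose none of the 19 endothelial markers passed, 6 of 8 adipocyte markers were lower and 26 of 26 muscle genes were higher. The part of these cell types in the values at either dose was not tested.

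No marker gene differed between doses at 21 days. EdgeR called 0 of 12558 genes between 2 and 0, 6 and 0, or 2 and 6 mg/kg or over the 3 doses (0% called), with 1078, 810, 1751 and 1366 genes at an unadjusted p under 0.05. DESeq2 called 19, 1, 254 and 138 genes in these comparisons and none of the 10 markers. At an unadjusted p under 0.05 stood 3 markers between 2 and 0 mg/kg, none between 6 and 0 mg/kg and 3 between 2 and 6 mg/kg. Rgs5 was at 57.6 ± 23.7 CPM, 28.1 ± 10.1 CPM and 48.8 ± 15.9 CPM at 0, 2 and 6 mg/kg (SD, n = 5 each), a log2 fold change of -1.03 between 2 and 0 mg/kg (standard error 0.326, adjusted p = 0.397). Cspg4 was at 82.4 to 98.4 CPM in the 21D 2 mg/kg tendons and at 38.9 to 82.3 CPM in the 21D 6 mg/kg tendons, so that the ranges all but met. Its log2 fold change between 2 and 6 mg/kg was 0.56 (standard error 0.219, adjusted p = 0.277 from edgeR). Over both time points the 2 mg/kg tendons thus had the lowest mean of Rgs5 among the doses and the highest mean of Cspg4.

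An interaction term tested whether the dose effect itself differed between 7D and 21D. None of the 10 genes passed for 2 against 0 mg/kg, where 0.223% of all genes did, or for 6 against 0 mg/kg, where 0.239% did (edgeR). At an unadjusted p under 0.05 stood 3 markers for 2 against 0 mg/kg, with 1253 of all genes, and none for 6 against 0 mg/kg, with 437 of all genes. The difference for Cnn1 was -1.66 (standard error 0.704, adjusted p = 0.424), for Acta2 -0.95 (0.444, 0.482) and for Cspg4 0.77 (0.318, 0.409), with a negative value meaning a lower ratio of 2 to 0 mg/kg at 7D than at 21D.

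The order of the group means differed among the markers. The 7D 0 mg/kg tendons had the highest mean for Acta2, Tagln, Cnn1, Myh11, Mcam, Notch3 and Myl9, and the 7D 6 mg/kg tendons came next for Acta2, Tagln, Cnn1, Mcam and Notch3. Neighbours in the order had overlapping ranges for each of the 10 genes, with the exception of Lmod1 in control tendons and the group next to it. Myl9 had the widest spread within groups at 21D, where its SD was 96.3, 154 and 62.2 CPM around means of 126, 140 and 105 CPM at 0, 2 and 6 mg/kg. In each of these groups 1 tendon stood far above the others, at 298, 413 and 212 CPM.

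Genes outside the list were ranked by how closely they followed the 10 markers from tendon to tendon. Over the 27 repaired tendons, the deviation from the group mean of the average marker was close to that of Shroom4 (Pearson r = 0.873, Spearman rho = 0.867), Vtn (0.851 and 0.869), Cdh5 (0.85 and 0.846) and Vwf (0.837 and 0.842). Cdh5 and Vwf are endothelial genes, and Vtn is on the list of mural genes. Over the 7 group means the most alike were Gja4, a connexin of arterial vessels (0.986 and 1), followed by Ubr7 (0.978 and 0.893), Fam110d (0.972 and 0.964), Nr2f2 (0.966 and 0.893) and AC099444.2 (0.964 and 1). These correlations are descriptions over tendons that share libraries and scaling. Among the markers the median correlation with the other members was 0.402 to 0.755 for 9 genes and -0.206 for Cspg4.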

How the data were processed

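The authors trimmed 50 base single-end reads (fastp), aligned them to the rat genome rn6 using STAR and counted them in exons of Ensembl release 95 genes, and they deposited raw counts per gene without normalization. They excluded 4 samples for poor read quality. By that account the 7D 6 mg/kg group would hold 4 tendons, but the labels name 3, which were used. The authors also deposited a table of their edgeR comparisons with log2 fold changes, an average log2 CPM, p-values and FDR, from which only gene names, identifiers, chromosomes and gene spans were used here.

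A gene was kept if its mean reached 3 CPM in any of the 7 groups, which dropped 566 genes. In R 4.3.3, edgeR 4.0.16 was used with TMM scaling and a single quasi-likelihood model of group means without covariates, fitted to all 30 tendons. Comparisons were contrasts in it, with p-values adjusted by Benjamini-Hochberg over 12558 genes and called at an adjusted p under 0.05. Standard errors are the log2 fold change divided by the square root of F. Total counts were 12405741 to 49909374 per tendon. The smallest chi-square per gene between 2 tendons of a group was 29.9 over 52 pairs, so none was treated as a duplicate. Each tendon came from a separate rat. A prior count of 2 was added for log2 CPM. The steps were tested on simulated data.

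The alternatives were RLE size factors, library size only, no filter, only the groups compared, a replicate block, limma-trend (limma 3.58.1), DESeq2 1.42.0, muscle genes left out, the muscle share as a covariate, a fold threshold of 1.5, and each tendon left out in turn. As a covariate, the muscle share entered as its centred log2. The members and gene lists were chosen with earlier results of these data known. All 10 members are named. Of each other list the 2 genes with the smallest adjusted p in each direction are named where called, besides fixed regulators, ligands and receptors. Myocd and Hey1 did not pass the filter. Pecam1 and the promoters of Tagln, Myh11, Mcam, Myl9 and Lmod1 were not analysed here. One gene that the rule for likeness names is not reported here.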

Additional observations from a re-analysis of the deposited data

Results flagged for a closer look

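Of 50 combinations of a marker gene and a group of 4 or 5 tendons, 7 held a tendon that stood apart from the rest of its group by Dixon's criterion. Its chance rate of about 1 in 20 is for independent, normally distributed values. The markers were correlated and CPM was used without logs, so 7 of 50 cannot be set against that rate. In 21D 6 mg/kg replicate 1, Acta2 was at 122 CPM (next tendon 65.1 CPM), Cnn1 at 3.34 CPM (next 1.22 CPM), Myh11 at 91.9 CPM (next 37.1 CPM) and Myl9 at 212 CPM (next 107 CPM). The muscle share of that tendon was 7.70%, and 21D 6 mg/kg replicate 2, with 9.81%, had Acta2 at 52.6 CPM and Myh11 at 33.7 CPM. Whether muscle content bears on these values was not tested. Myl9 also stood high in 21D 0 mg/kg replicate 1, at 298 CPM (next 94.2 CPM), and in 21D 2 mg/kg replicate 3, at 413 CPM (next 95.2 CPM), where Acta2 was at 92.1 and 85.0 CPM, both inside the range of the other tendons or within 1 CPM of it. Notch3 was lowest in 7D 0 mg/kg replicate 5, at 68.7 CPM (next 126 CPM). The same tendon had the lowest Acta2, Tagln, Cnn1, Myh11, Mcam, Rgs5, Myl9 and Lmod1 of its group and the highest Cspg4, and without it the log2 fold change between 2 and 0 mg/kg was -1.43 for Acta2, -1.44 for Tagln and -1.89 for Cnn1.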

How the results depend on the processing

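Apart from the fits that left out a tendon, 332 of 396 counts of calls recomputed under the alternatives stayed within 1.5 times. For these alternatives, counts of genes that stayed within 1.5 times are not listed below. In the same settings 528 of 594 values of single markers kept their direction and their side of the threshold. The 594 values include markers that passed in neither fit. With a tendon left out, Acta2, Notch3 and Cspg4 lost their calls between 7D 2 and 0 mg/kg in 6, 6 and 7 of 9 fits. All 70 group means of log2 CPM moved by less than 1 SD with a prior count of 0.25. The counts rest on 3 to 5 tendons per group, and a 7D dose difference near the threshold is not resolved at this size. The cause of the changes below was not tested.

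Between 7D 2 and 0 mg/kg, DESeq2 gave 6 markers and 710 genes, and the muscle share as a covariate, which separates the 7D 0 mg/kg tendons from those of both other doses, gave 0 and 1296. With that covariate Myh11 turned to 0.35, Mcam to 0.02, Myl9 to 0.20 and Lmod1 to 0.65. Notch3 did not pass when only the groups compared were fitted, and Cspg4 did not pass with limma-trend. Leaving out a tendon gave 0 markers (without 7D 0 mg/kg replicate 3) to 4 (without 7D 0 mg/kg replicate 5) and 117 to 462 genes. Between 2 and 6 mg/kg, DESeq2 gave 1 marker and 69 genes and the covariate 3 genes, library size only turned Lmod1 to -0.01 and limma-trend to 0, and leaving out a tendon gave 0 to 3 genes, Myh11 at -0.49 to 0.20 and Lmod1 at -0.20 to 0.18. Between 6 and 0 mg/kg, 103 genes were called with only the groups compared, 194 with DESeq2, 76 with limma-trend, 20 without muscle genes and 575 with the covariate. The covariate turned Cnn1 to 0.24, Myh11 to 0.42, Mcam to 0.54, Myl9 to 0.41 and Lmod1 to 0.61, and without a filter Rgs5 was at 0.00 (below 0 before rounding). Leaving out a tendon gave 0 to 60 genes, Mcam at -0.19 to 0.02, Rgs5 at -0.14 to 0.12 and Myl9 at -0.34 to 0.02. For 2 mg/kg against the mean of 0 and 6 mg/kg, only the groups compared gave 2 markers, DESeq2 4 markers and 405 genes, limma-trend 2 markers, library size only 67 genes and the covariate 658 genes, with 0 to 1 markers and 24 to 200 genes when a tendon was left out. Over the 3 doses at 7D, DESeq2 gave 3 markers and 572 genes, limma-trend 2 markers and the covariate 865 genes, with 1 to 3 markers and 158 to 315 genes when a tendon was left out.

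Against control tendons, library size only gave 5 markers at 7D 2 mg/kg, 7 at 21D 0 mg/kg and 2 at 21D 6 mg/kg and turned Cspg4 at 7D 0 mg/kg to 0.12. Only the groups compared gave 2 markers at 7D 2 mg/kg and 3 at 7D 6 mg/kg, and limma-trend gave 2 at 21D 0 mg/kg. The covariate gave 0 markers and 1407 genes at 7D 2 mg/kg and 1 marker and 1495 genes at 7D 6 mg/kg, and turned Lmod1 to 0.33 and 0.29 there. Leaving out a tendon gave 1 to 2 markers at 7D 2 mg/kg, 2 to 5 at 7D 6 mg/kg, 1 to 4 at 21D 2 mg/kg and 1 to 2 at 21D 6 mg/kg. The genes called in those fits were 8140 to 8573, 7919 to 8427, 7902 to 8507 and 7096 to 8015. In the main fit 64.1 to 71.4% of all genes passed against control tendons, so these counts of markers are not a result about the markers. Between 21D and 7D at 0 mg/kg, only the groups compared gave 2 markers, DESeq2 1496 genes, the covariate 290 genes and a fold of at least 1.5 gave 428 genes, with 0 to 4 markers and 203 to 1408 genes when a tendon was left out. At 2 mg/kg only the groups compared gave 0 markers, with 0 to 1 markers and 949 to 1541 genes when a tendon was left out. At 6 mg/kg limma-trend gave 1 marker and the covariate 0 markers and 266 genes, with 0 to 3 markers and 788 to 1973 genes when a tendon was left out. In the main fit 5.35% of all genes passed between 21D and 7D at 0 mg/kg and 13.1% at each other dose. Between doses at 21D, DESeq2 gave 19 genes for 2 against 0, 1 for 6 against 0, 254 for 2 against 6 mg/kg and 138 over the doses. For 2 against 6 mg/kg library size only gave 3, only the groups compared 24 and the covariate 18 genes, with 0 to 1 when a tendon was left out. Over the 21D doses library size only and only the groups compared each gave 1 gene, with 0 to 2 when a tendon was left out. For the difference of 2 against 0 mg/kg between time points, only the groups compared gave 17 genes, DESeq2 226, limma-trend 44, muscle genes left out 0 and the covariate 1150, with 0 to 72 when a tendon was left out. For 6 against 0 mg/kg these gave 0, 139, 8, 0 and 156 genes, with 0 to 69 when a tendon was left out.

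The replicate numbers did not pair the tendons. The median correlation of deviations between tendons of the same number was 0.00685 over 76 pairs (lowest -0.701), and 6 of 30 tendons were most like a tendon of their own number. With the replicate block, Cspg4 did not pass between 7D 2 and 0 mg/kg (0.87, adjusted p = 0.066 from edgeR), Acta2 was at -1.23 and Notch3 at -1.38, Myh11 between 2 and 6 mg/kg turned to 0.23 and Rgs5 between 6 and 0 mg/kg to -0.10. Against control tendons, Mcam (0.71, adjusted p = 0.109) and Notch3 (0.88, adjusted p = 0.0667) did not pass at 7D 6 mg/kg with the block. The block gave 1 gene between 7D 2 and 6 mg/kg, 2 markers at 21D 0 mg/kg against control, 0 markers between 21D and 7D at 6 mg/kg, and 2 and 0 genes for the differences of the 2 and 6 mg/kg effects between time points.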

Other observations

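Between 7D 0 mg/kg and control tendons, 71.4% of all genes passed the test (35.8% higher and 35.6% lower), and 29 of 35, 21 of 32 and 11 of 19 genes of the wider contractile, mural and Notch lists did so. Of 35 other contractile and SRF-myocardin genes, 13 were higher and 16 lower, led by the calponin Cnn2 (log2 fold change 2.21, standard error 0.204) and the LIM protein Csrp1 (1.53, 0.152) among those higher and the myosin phosphatase subunits Ppp1r12a (-1.32, 0.102) and Ppp1r12b (-2.28, 0.281) among those lower. Of 32 other mural genes, 14 were higher and 7 lower, with Tbx18, a transcription factor of pericytes, at 1.60 (0.199) and the sphingosine-1-phosphate receptor S1pr3 at 2.95 (0.377), and with Art3 at -3.22 (0.465) and Angpt1, the ligand of the endothelial receptor TIE2, at -1.76 (0.328). Of 19 Notch pathway genes, 9 were higher and 2 lower. Jag1 stood at 1.31 (0.190) and the glycosyltransferase Lfng at 1.86 (0.277), and the target genes Hes1 and Hey2 at -0.68 (0.177) and -0.99 (0.313). The skeletal muscle genes were lower in 26 of 26 cases in the same comparison, and their part in these values was not tested.

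Between 21D and 7D at 0 mg/kg, where 5.35% of all genes passed, the contractile list held 3 higher and 3 lower genes. Actg2 fell by 2.36 and Csrp2 by 1.41 on the log2 scale, while Hspb7 (3.15) and Synm (1.74), which striated muscle also expresses, rose. Of the mural genes, 3 were lower, among them Agtr1a, the angiotensin receptor (-1.16, standard error 0.172, adjusted p = 0.000697 from edgeR), and Steap4 (-0.77, 0.200). Lfng (-0.80, standard error 0.221) was the only Notch pathway gene that passed. Of 23 fibroblast activation genes, 2 were lower, Sfrp2 (-1.83, 0.310) and tenascin C, Tnc (-1.62, 0.409).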
